A study of Mus musculus with 13 samples.

Results

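The genes described here encode clotting and complement proteins that hepatocytes release into the blood. They are 35 listed genes, 20 of coagulation and fibrinolysis (with vitronectin, Vtn, which acts in both systems) and 15 of complement, out of 20403 genes tested. A gene was found by the name of its array probe, current or older, and its brightest probe was used. All 35 were found, with 48 probes, and all 35 were well above background on all 13 arrays, so none was lost to the filter on dim probes. They were measured in liver RNA of 13 male mice on the C57BL/6 background, all of which had eaten a western-style diet rich in fat for 5 months. The 5 WT mice carried wild-type SIRT1, an NAD-dependent deacetylase. The 5 TAKI mice carried the SIRT1 TA KI allele, in which alanine replaces threonine 522, and the 3 TEKI mice the SIRT1 TE KI allele, with glutamate at that position. The labels name no Cre or tissue-specific promoter, and no group on another diet was analysed here. The design text counts mice, so each array is a separate animal.

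Most clotting factors circulate as inactive zymogens. Factors of the contact system and of the tissue factor pathway activate one another until thrombin, made from prothrombin, cuts fibrinogen into fibrin, and serpins and the protein C system hold the cascade in check. Complement is a parallel cascade: recognition proteins such as the mannose-binding lectins activate proteases, these build convertases that split C3, and the terminal components C5 to C9 assemble into a membrane pore. The liver is the main source of most of these proteins, and the fibrinogen chains and several complement proteins are known acute phase proteins, whose genes respond to interleukin 6 during inflammation.

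Levels are log2 intensities minus the 75th percentile of each array, so 1 unit is a factor of 2, and they are compared between animals for 1 probe, never between probes. The share of spots well above background was 60.5% to 73.1% on 12 arrays and 86.8% in TEKI replicate 1. The TAKI arrays lay on slides of their own, while WT replicate 5 shared a slide with all 3 TEKI arrays. The 10 hepatocyte markers, among them Alb and Ttr, were all measured and none passed the test between genotypes, although Alb was saturated on all 13 arrays and Ahsg on 5. The median level over these 10 markers ran from 7.28 to 7.64 in WT animals, from 6.91 to 7.73 in TAKI and from 7.32 to 8.03 in TEKI. In bulk liver RNA, fewer hepatocytes and less RNA per hepatocyte cannot be told apart. Of 8 lymphocyte markers, 2 were higher in TAKI than in WT at an adjusted p under 0.05, Cd2 among them (difference 1.05 ± 0.14 SE). The lowest adjusted p of these markers was 0.0027 by limma. The part of other cells in the values below was not tested. A probe of this design reads RNA amount and does not show the codon changed in Sirt1.

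Fga, the α chain of fibrinogen, stood apart in 1 animal, and its probe and that of its partner Fgb are shown first, together with that of complement factor B, which had the smallest p of TAKI against WT. The probe sequences come from the deposited scanner files and match the mRNA strand. In the files' build, mm7, the Fga probe lies at chr3:83136441-83136500 on the plus strand, the Fgb probe at chr3:83147097-83147156 on the minus strand, and the Cfb probe spans chr17:32952681-32953037 on the minus strand, a stretch of 357 bases for a probe of 60, so it crosses an intron. Each of them has 1 reading frame or more with no stop codon.
Fga: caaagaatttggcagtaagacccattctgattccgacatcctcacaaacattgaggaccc
Fgb: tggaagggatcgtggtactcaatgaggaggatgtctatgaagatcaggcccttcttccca
Cfb: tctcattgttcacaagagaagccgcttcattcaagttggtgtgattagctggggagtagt

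The 3 fibrinogen genes lie side by side on chromosome 3, and the probes of Fga and Fgg are 16.9 kb apart. C8a and C8b, which encode the α and β chains of complement component 8, lie on opposite strands of chromosome 4 with their probes 11.5 kb apart. Each of these 5 genes belongs to at least 1 pair of partner chains that correlated across animals (below). The 250 bases before the start of each are printed. They are RefSeq promoters of build GRCm38.p6, at chr3:83025903-83026152 (plus strand, Fga), chr3:83049864-83050113 (minus, Fgb), chr3:83007474-83007723 (plus, Fgg), chr4:104876399-104876648 (minus, C8a) and chr4:104766067-104766316 (plus, C8b). Capitals mark matches, on either strand, to CTGGGA, the core of a known interleukin 6 response element, to GTTAAT, one arm of the site of the hepatocyte factor HNF1, and to TTNNGNAA, a C/EBP type motif. No 2 matches to different motifs overlapped. C8g, which encodes the γ chain of C8, also correlated with C8a and C8b but is not printed. The same window before its start held no match to these motifs.
Fga: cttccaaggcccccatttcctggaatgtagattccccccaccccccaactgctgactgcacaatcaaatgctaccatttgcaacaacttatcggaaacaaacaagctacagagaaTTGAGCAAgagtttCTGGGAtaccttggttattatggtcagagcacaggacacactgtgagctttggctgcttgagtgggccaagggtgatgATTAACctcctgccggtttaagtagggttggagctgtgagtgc
Fgb: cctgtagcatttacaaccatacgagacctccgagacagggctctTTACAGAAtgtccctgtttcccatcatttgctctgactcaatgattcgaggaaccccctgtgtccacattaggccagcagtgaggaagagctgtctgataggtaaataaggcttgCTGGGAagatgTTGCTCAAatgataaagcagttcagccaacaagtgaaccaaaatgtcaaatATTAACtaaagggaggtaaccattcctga
Fgg: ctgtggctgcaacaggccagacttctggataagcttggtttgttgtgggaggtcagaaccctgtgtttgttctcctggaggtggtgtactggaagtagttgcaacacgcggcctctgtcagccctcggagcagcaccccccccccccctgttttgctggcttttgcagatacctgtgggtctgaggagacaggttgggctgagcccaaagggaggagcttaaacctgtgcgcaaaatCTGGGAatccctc
C8a: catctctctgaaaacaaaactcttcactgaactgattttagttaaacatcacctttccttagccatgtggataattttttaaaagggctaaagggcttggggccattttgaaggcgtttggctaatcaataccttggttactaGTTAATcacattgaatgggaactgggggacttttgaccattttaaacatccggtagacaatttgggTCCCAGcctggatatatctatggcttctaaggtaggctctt
C8b: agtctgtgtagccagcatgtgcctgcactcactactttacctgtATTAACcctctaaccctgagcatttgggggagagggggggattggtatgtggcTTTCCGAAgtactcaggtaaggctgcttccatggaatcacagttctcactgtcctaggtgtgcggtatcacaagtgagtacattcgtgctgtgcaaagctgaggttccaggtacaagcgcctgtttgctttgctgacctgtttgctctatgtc

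CTGGGA stood 121 to 116 bases before the start of Fga, 91 to 86 bases before that of Fgb and 13 to 8 bases before that of Fgg. All 3 of these matches were on the strand of the gene. A GTTAAT match was found in Fga, Fgb, C8a and C8b, at 43 to 38 bases before the start of Fga and 29 to 24 bases before that of Fgb. Promoters were given for 28 of the 35 genes, 29 promoters in all; Plg, Proc, Kng1, C2, Cfb, Cfi and Masp1 had none. Of the 29, 12 held CTGGGA (41.4%), against 27.0% of all 32851 promoters. GTTAAT was in 8 of the 29 (27.6%), against 6.43% of all. TTNNGNAA was in 13 (44.8%), against 36.8% of all. The matches describe letters in these windows only.

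None of the 35 RNAs differed between genotypes past the threshold of 0.05 on the adjusted p of limma. That held for TAKI minus WT, where 2.77% of all genes tested passed, for TEKI minus WT, where 0.0049% passed, and for TEKI minus TAKI, where 3.4% passed. At an unadjusted p under 0.05 the count was again 0 of 35 in each comparison, against 14.4%, 11.4% and 11.9% of all genes. On its brightest probe, no member had groups that did not overlap, while 7.39%, 3.66% and 8.23% of all genes did. The 3 comparisons share animals, so their counts are not separate evidence. The 95% intervals give the sizes that remain possible. C3 is left out of them, because its probe, printed on 10 spots, was called saturated on all 13 arrays. For TAKI minus WT, 32 of the other 34 intervals lay within a factor of 2 (1 on the log2 scale) and 20 lay within 0.5. For TEKI minus WT, 33 and 21 did. Median scaling moved the members' median in that comparison from 0.073 to -0.360, with the largest move in TEKI replicate 1 (below). The standard errors ran from 0.087 (C2) to 0.55 (C8b) for TAKI minus WT, so the same test bounds C2 closely and C8b hardly at all.

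**Figure D1:**
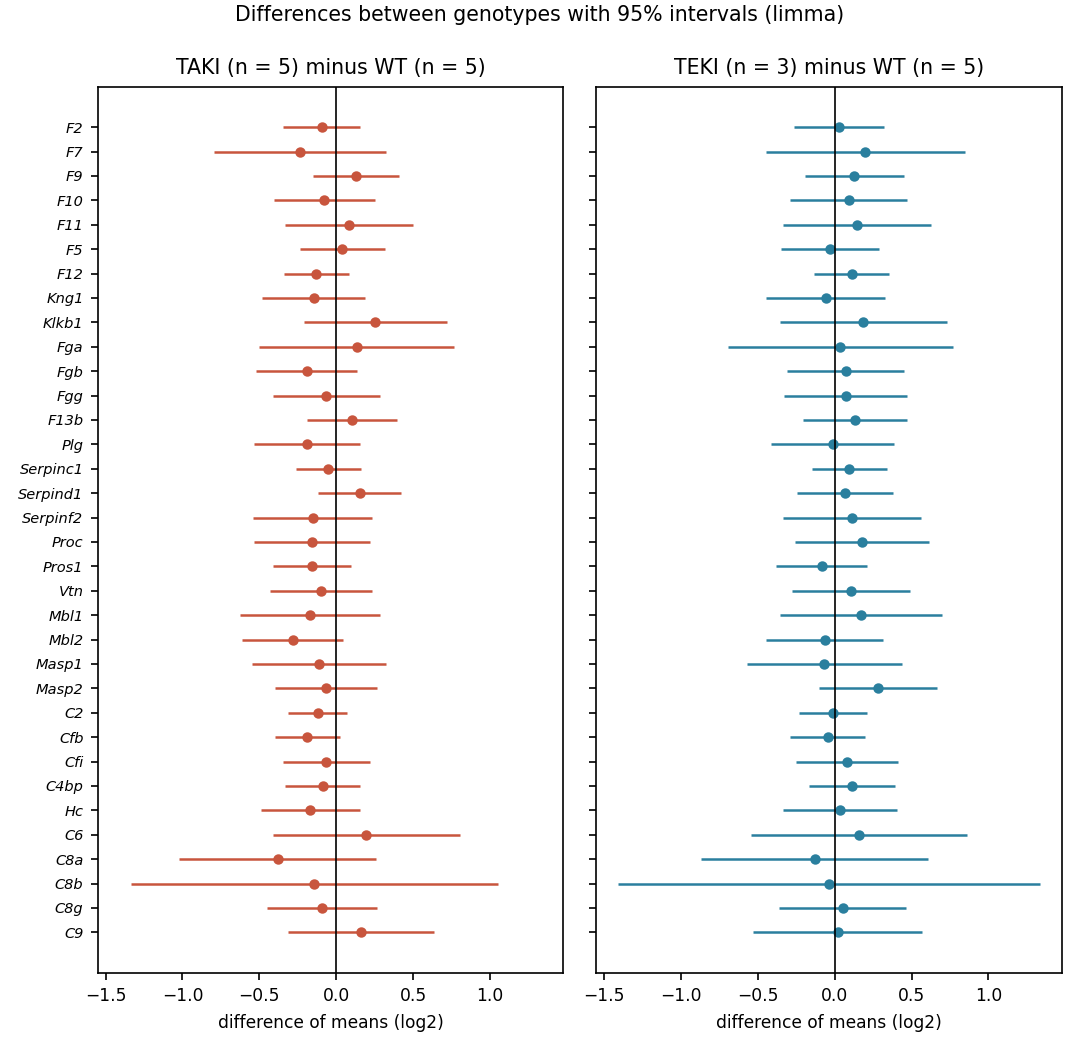
Differences of mean log2 level between genotypes for 34 coagulation and complement genes (C3, saturated on all arrays, left out), ordered by role. Points are the limma estimates and bars their 95% intervals; left TAKI (n = 5) minus WT (n = 5), right TEKI (n = 3) minus WT. All 34 intervals include 0 in both panels, and that of C8b is the widest.

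In the coagulation cascade, the zymogens prothrombin (F2) and factors VII, IX, X and XI (F7, F9, F10, F11) differed between TAKI and WT by -0.24 (F7) to 0.13 (F9), and between TEKI and WT by 0.03 (F2) to 0.20 (F7). F7, the protease that binds tissue factor, had the largest SD within groups of these 5, at 0.43, and F2 the smallest, at 0.17. Factor V (F5), the cofactor of factor Xa, was at 3.55 ± 0.13 in WT (SD, n = 5), 3.59 ± 0.22 in TAKI (n = 5) and 3.52 ± 0.22 in TEKI (n = 3). F13b, the carrier subunit of the fibrin-crosslinking factor XIII, differed by 0.10 ± 0.13 (SE) in TAKI and 0.13 ± 0.15 in TEKI.

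The contact system starts clotting on surfaces and releases bradykinin. F12, its first zymogen, had the smallest p of any member for TEKI minus TAKI. Its levels were 6.88, 6.85, 7.02, 6.95 and 7.05 in WT, 6.98, 6.68, 6.94, 6.66 and 6.84 in TAKI, and 7.02, 6.93 and 7.23 in TEKI. Every TEKI animal lay within or above the range of WT, and 2 TAKI animals, replicates 2 and 4, lay below all others. TEKI exceeded TAKI by 0.24 (95% interval -0.002 to 0.48, unadjusted p = 0.051, adjusted p = 0.42 by limma), and TEKI differed from WT by 0.11 ± 0.11. Klkb1, plasma prekallikrein, differed by 0.25 ± 0.21 in TAKI and 0.19 ± 0.25 in TEKI. Kng1, the kininogen that carries prekallikrein, differed by -0.15 ± 0.15 and -0.06 ± 0.18. The other Kng1 probe differed by 0.12 ± 0.20 in TAKI, with the opposite sign, and signal from the near-identical Kng2 cannot be told apart here.

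Fga, Fgb and Fgg encode the α, β and γ chains of fibrinogen, which assemble in equal number. Fga was at 7.01, 5.65, 5.40, 5.45 and 5.57 in WT, 6.35, 5.80, 5.94, 5.59 and 6.08 in TAKI, and 5.66, 5.66 and 6.24 in TEKI. WT replicate 1 stood 1.36 above the next WT animal, and above every other animal. The mean difference of TAKI from WT was 0.13 ± 0.29, and 0.43 without WT replicate 1 (adjusted p = 0.28); it was -0.02 with arrays scaled to their median. For TEKI minus WT it was 0.04 ± 0.33, and 0.34 without that animal (adjusted p = 0.53).

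Fgb was at 9.52, 9.14, 9.17, 9.44 and 9.47 in WT, 9.38, 9.26, 9.30, 8.86 and 8.97 in TAKI, and 9.37, 9.11 and 9.78 in TEKI, with a saturated spot on 1 WT array. Fgg was at 9.40, 8.88, 8.76, 8.95 and 9.10 in WT, 9.20, 8.99, 9.15, 8.59 and 8.83 in TAKI, and 8.96, 8.91 and 9.40 in TEKI. For both chains TAKI replicate 4 was lowest and TEKI replicate 3 highest (for Fgg level with WT replicate 1), and the groups overlapped. Neither chain passed the test: Fgb differed by -0.19 ± 0.15 in TAKI and 0.07 ± 0.17 in TEKI, Fgg by -0.07 ± 0.16 and 0.07 ± 0.18.

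Among inhibitors and fibrinolysis, antithrombin (Serpinc1) was among the steadier RNAs, at 8.38 ± 0.14 in WT, 8.33 ± 0.13 in TAKI and 8.47 ± 0.12 in TEKI. Heparin cofactor II (Serpind1), a thrombin inhibitor, differed by 0.15 ± 0.12 in TAKI and α2-antiplasmin (Serpinf2), the inhibitor of plasmin, by -0.15 ± 0.18. These 3 serpins thus gave no common direction in TAKI, and none passed the test. Plg, the precursor of plasmin, differed by -0.19 ± 0.16 in TAKI and -0.01 ± 0.18 in TEKI. Vtn, which binds the terminal complement complex and the plasminogen activator inhibitor, differed by -0.10 ± 0.15 and 0.11 ± 0.18.

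Protein C (Proc) and its cofactor protein S (Pros1) inactivate factors Va and VIIIa. Proc was at 7.57, 7.41, 7.72, 7.65 and 8.24 in WT, 7.79, 7.26, 7.82, 7.37 and 7.56 in TAKI, and 7.86, 7.65 and 8.19 in TEKI. The highest value came from WT replicate 5 and the next from TEKI replicate 3, and the groups overlapped (TEKI minus WT 0.18 ± 0.20, unadjusted p = 0.39). Pros1 differed by -0.16 ± 0.12 in TAKI and -0.08 ± 0.13 in TEKI. Its second, dimmer probe gave 0.13 ± 0.12 in TAKI, the opposite sign.

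The lectin pathway of complement begins with the mannose-binding lectins Mbl1 and Mbl2, which recognise sugars on microbes, and their proteases Masp1 and Masp2. Mbl2 was at 7.99, 7.81, 7.96, 8.16 and 8.50 in WT, 8.18, 7.66, 7.51, 7.77 and 7.88 in TAKI, and 8.0, 8.14 and 7.91 in TEKI. Of the TAKI animals, 3 lay below every WT animal, and replicates 1 and 5 lay among them (difference -0.28, 95% interval -0.61 to 0.05, unadjusted p = 0.084, adjusted p = 0.44). Masp2 was at 5.16, 4.84, 5.32, 5.13 and 5.59 in WT, 5.42, 4.95, 5.18, 4.93 and 5.23 in TAKI, and 5.48, 5.28 and 5.71 in TEKI. All 3 TEKI values lay in the upper part of the WT range or above it. Masp2 had the smallest p of any member for TEKI minus WT (0.28, 95% interval -0.10 to 0.66, unadjusted p = 0.13, adjusted p = 0.54). A second Masp2 probe that followed the first across animals (r = 0.97) gave 0.23 ± 0.17, and another, aimed at a different transcript (r = 0.19), gave 0.10 ± 0.16.

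Mbl1 differed by -0.17 ± 0.21 in TAKI and 0.17 ± 0.24 in TEKI, and Masp1 by -0.11 ± 0.20 and -0.07 ± 0.23. Masp1 has 4 probes. A dimmer probe of the same transcript followed the first across animals (r = 0.88) and differed by -0.19 ± 0.14 in TAKI. Another, aimed at a different transcript and well above background on 9 arrays, differed by -0.11 ± 0.17. The remaining probe, also of a different transcript, ran against the first (r = -0.48) and differed by 0.14 ± 0.12, so the gene's probes do not all give 1 direction.

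C2 and factor B (Cfb), neighbours on chromosome 17, supply the protease subunits of the 2 C3 convertases. Cfb was at 8.22, 7.91, 8.08, 7.98 and 8.10 in WT, 8.0, 7.94, 7.89, 7.73 and 7.79 in TAKI, and 7.86, 7.95 and 8.22 in TEKI. The TAKI values were shifted down but overlapped those of WT (difference -0.19, 95% interval -0.40 to 0.03). Cfb had the smallest p of TAKI minus WT, at 0.078 unadjusted and 0.42 adjusted.

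C2 was at 5.95, 5.72, 5.70, 5.63 and 5.89 in WT, 5.57, 5.70, 5.74, 5.60 and 5.68 in TAKI, and 5.89, 5.67 and 5.73 in TEKI. It had the smallest SD within groups of the 35, at 0.11, and a total range of 0.38 over 13 animals. A second, dimmer C2 probe was lower in TAKI by 0.25 ± 0.08 (unadjusted p = 0.0079, adjusted p = 0.15 over all probes), which does not pass, and the first probe gave -0.12 ± 0.09. All 5 TAKI values of this second probe (3.11 to 3.40) lay below all 5 WT values (3.44 to 3.57). TAKI and WT were apart in this way for 7.39% of all genes on their brightest probe.

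C3, the component on which all pathways meet, was saturated on all 5 WT, 5 TAKI and 3 TEKI arrays, so its measured means of 9.64 ± 0.19, 9.39 ± 0.23 and 9.70 ± 0.23 (SD) are lower bounds and no difference is read from them. A second C3 probe was far from saturation. It was at 1.21, 0.20, 0.29, 0.14 and 0.52 in WT, 0.42, -0.06, 0.34, -0.41 and -0.04 in TAKI, and 0.21, 0.04 and 0.65 in TEKI. WT replicate 1 was again the highest animal, and the groups overlapped (TAKI minus WT -0.42 ± 0.23, unadjusted p = 0.090).

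Of the regulators, factor I (Cfi), which cuts C3b, differed by -0.06 ± 0.13 in TAKI and 0.08 ± 0.15 in TEKI. C4bp, which binds C4b, differed by -0.09 ± 0.11 and 0.11 ± 0.13. Both were among the steadier members.

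The terminal components held the most variable members. C8b was at 3.29, 1.57, 2.32, 1.79 and 3.54 in WT, 3.35, 1.83, 2.92, 0.85 and 2.84 in TAKI, and 2.73, 1.50 and 3.17 in TEKI. High and low animals occurred in all 3 genotypes, 2.69 apart at the extremes, and its SD within groups of 0.93 was the largest of the 35. The differences were -0.14 ± 0.55 in TAKI and -0.04 ± 0.63 in TEKI. C8a differed by -0.38 ± 0.29 and -0.13 ± 0.34, and C8g, the γ chain of C8, by -0.10 ± 0.16 and 0.05 ± 0.19. The intervals of all 3 chains include 0. Hc, which encodes C5, differed by -0.17 ± 0.15 and 0.03 ± 0.17. C6 differed by 0.20 ± 0.28 and 0.16 ± 0.32, and C9, which forms the wall of the pore, by 0.16 ± 0.22 and 0.02 ± 0.25.

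**Figure D2:**
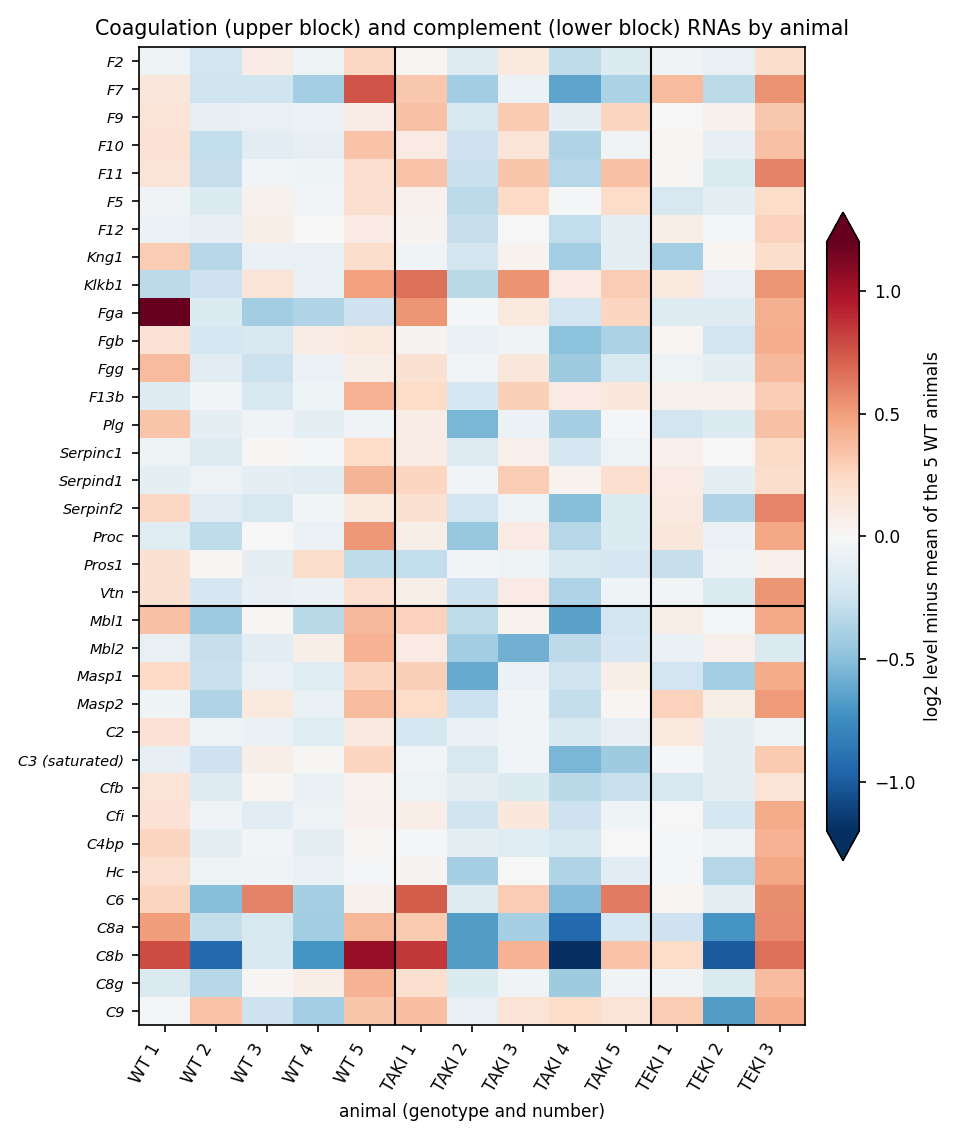
Level of each of the 35 genes in each of the 13 animals, as log2 minus the mean of the 5 WT animals (colour scale, red higher and blue lower, saturated at the ends of the bar). Rows are ordered by role, coagulation above the line and complement below it; columns are animals by genotype. TEKI replicate 3 is red in nearly every row and TAKI replicate 4 blue in most, and the widest swings are those of Fga in WT replicate 1 and of C8b.

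Over the 35 genes the median difference was -0.102 for TAKI minus WT, with 26 below 0, against a median of 0.004 over all genes tested, of which 49.4% lay below 0. For TEKI minus WT it was 0.073, with 25 above 0, against a median of 0.077 and 63.4% over all genes. For TEKI minus TAKI it was 0.145, with 29 above 0, against 0.067 and 61.1%. Without the saturated C3, 25 of 34 lay below 0 in TAKI minus WT (median -0.099). Above 0 were 24 of 34 in TEKI minus WT and 28 of 34 in TEKI minus TAKI. These are descriptions of genes that vary together. The median of TAKI minus WT was below 0 under every alternative run, while that of TEKI minus WT and of TEKI minus TAKI turned below 0 with median scaling and not with quantile normalization. Scaling arrays to their median moved the median of all genes to -0.149 in TAKI minus WT and -0.356 in TEKI minus WT. By animal, the members' median then stood at -1.09, -0.14 and 0.24 above the WT mean in TEKI replicates 1 to 3, so replicate 1 moved most. Taken relative to the median of all genes, the members' median was -0.106 in TAKI minus WT under both scalings, -0.047 after quantile normalization and 0.015 after normexp background correction. In TEKI minus WT it was -0.004 under both scalings. The sign in TEKI minus WT also turned without TEKI replicate 3, to -0.079, within the slide that TEKI shared with WT replicate 5, to -0.124, and with a correction for position on the array, to -0.131. With that correction TEKI minus TAKI was -0.027. The members' median was then -0.39, -0.14 and 0.20 in TEKI replicates 1 to 3, and replicate 1 again moved most.

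Single animals differed more than genotype means did, which averaging over animals brings about by itself. The median of the 35 genes, as log2 minus the WT mean, was 0.17, -0.20, -0.08, -0.08 and 0.21 in WT replicates 1 to 5, 0.10, -0.22, 0.05, -0.32 and -0.05 in TAKI, and 0.01, -0.11 and 0.42 in TEKI. In TEKI replicate 3, 33 of the 35 lay above their WT mean, and in TAKI replicate 2 none did. TEKI replicate 3 had the highest value of all animals for 18 of the 35, the saturated C3 among them. Over the 595 pairs of members, those of C3 included, the median correlation across the 13 animals was 0.61 and 95.5% were above 0. This describes values that share their arrays and their scaling.

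The overall level of the arrays differed among these animals. The 75th percentile of intensity, which is subtracted, was 1174 on the array of TAKI replicate 4 and 660 on that of TEKI replicate 3, the highest and the lowest. Because it is subtracted from every gene, lists of genes share its error, and correlations between them on this scale are given as descriptions. Across 13 animals the members' median had r = -0.79 with the log2 of this percentile, a sign that the subtraction itself can give, and r = 0.83 with the median of the 10 hepatocyte markers. Quantile normalization, which removes differences in the distribution of intensities, left r = 0.35 with the hepatocyte markers (adjusted permutation p = 0.27 over 6 relations). It also lowered the median correlation over the 595 pairs to 0.29, with 75.1% above 0.

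**Figure D3:**
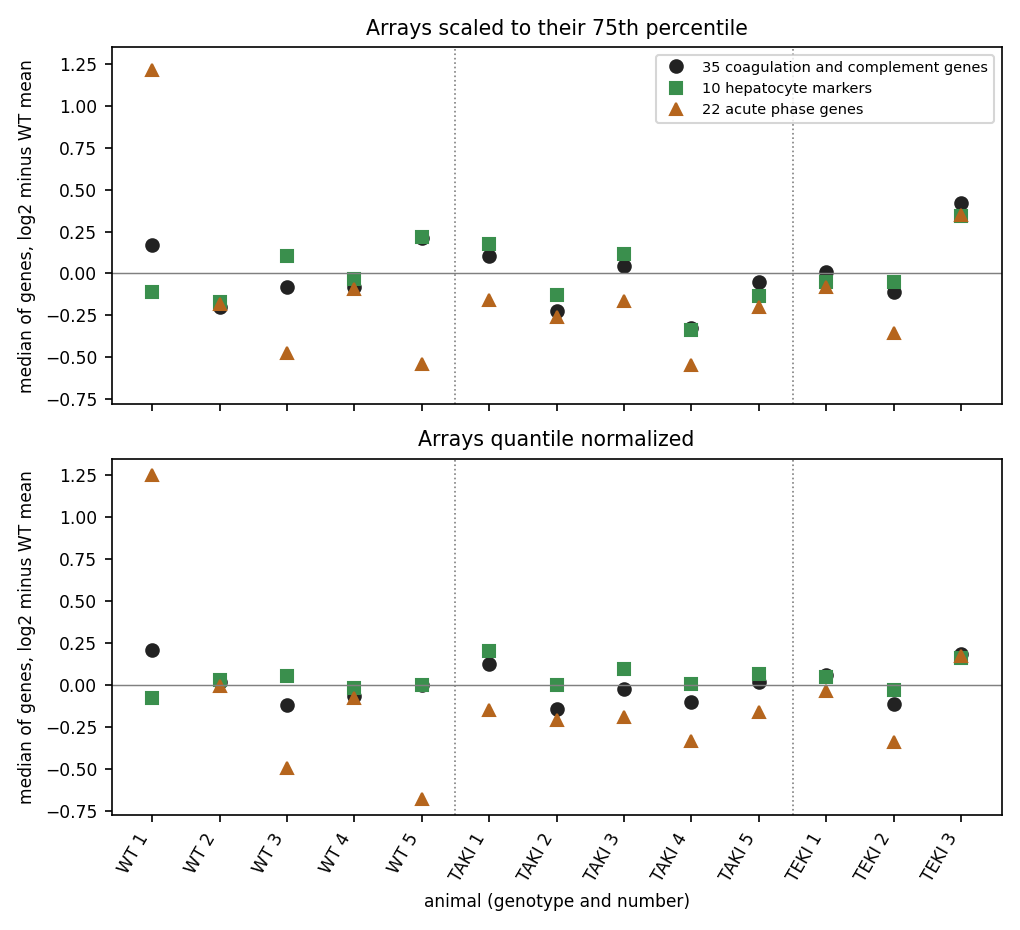
Median over the 35 coagulation and complement genes (circles), 10 hepatocyte markers (squares) and 22 acute phase genes (triangles) in each animal, as log2 minus the WT mean; arrays scaled to their 75th percentile above, quantile normalized below. The acute phase genes of WT replicate 1 stand at 1.21 and 1.25 in the 2 panels, while the spread of the members' median narrows from 0.74 to 0.36 between panels.

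The acute phase genes set 1 animal apart. The list holds 22 genes, all tested, and none passed in any comparison, with 0 at an unadjusted p under 0.05 in each. WT replicate 1 had the highest value of all 13 animals for 16 of the 22, and its median over the list was 1.21 above the WT mean. The next animal, TEKI replicate 3, was at 0.35. Saa2, a serum amyloid A, was at 9.45 in WT replicate 1, 8.65 in TEKI replicate 3 and 6.01 to 7.40 in the other 11 animals, with a saturated spot on 1 array, so that its highest level may be a lower bound. Orm2, an orosomucoid, was at 7.10 in WT replicate 1, 6.17 in TEKI replicate 3 and 5.30 to 5.77 in the rest. Apcs, serum amyloid P, was at 4.47 in WT replicate 1 and 1.24 to 2.35 in all others. Saa3 and Lcn2, singled out after their values were seen, were at 8.59 and 5.37 in WT replicate 1, against no more than 6.06 and 2.53 elsewhere. The probe of Hp, haptoglobin, was saturated on all 13 arrays, so no difference is read from it. Il6ra, the interleukin 6 receptor, had the smallest p of TEKI minus WT (0.31 ± 0.34, adjusted p = 0.78). The labels record nothing that sets this animal apart from the other WT mice.

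Fga, Kng1, C2 and Cfb were the members with their highest value in WT replicate 1. Fga was 1.35 above the median of the other 12 animals there, C8a 0.77, C8b 0.76, Fgg 0.44, Plg 0.43 and Fgb 0.24. F2, F12 and Serpinc1 were within 0.10 of that median. Others were below it in this animal, with differences from it of -0.45 for Klkb1, -0.23 for F13b, -0.21 for C9 and -0.18 for Serpind1. Across animals, Fga followed the median of the acute phase genes (r = 0.85, rho = 0.58, permutation p = 0.00205 and 0.0401, adjusted 0.00307 and 0.0481 over 6 relations), and so did Fgg (r = 0.73, rho = 0.67, adjusted 0.00307 and 0.0250). Fgb gave r = 0.57 (adjusted p = 0.058) and rho = 0.66 (adjusted p = 0.025). The Fgb spot was saturated on 1 WT array. If that was WT replicate 1, the 0.24 of Fgb there is a lower bound and its r may be affected. Without the 2 animals farthest from the median, TEKI replicate 3 and WT replicate 1, r was 0.42, 0.45 and 0.37 for Fga, Fgg and Fgb, so these relations rest on those animals. After quantile normalization r over all 13 was 0.85, 0.76 and 0.58. The members' median gave r = 0.70 (adjusted p = 0.0042) with the acute phase genes after quantile normalization. With the 75th percentile it did not pass, at r = 0.51 and rho = 0.55 (adjusted p = 0.0802 and 0.0525). There r was 0.13 without TEKI replicate 3 and WT replicate 1. The relations were chosen after values were seen.

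**Figure D4:**
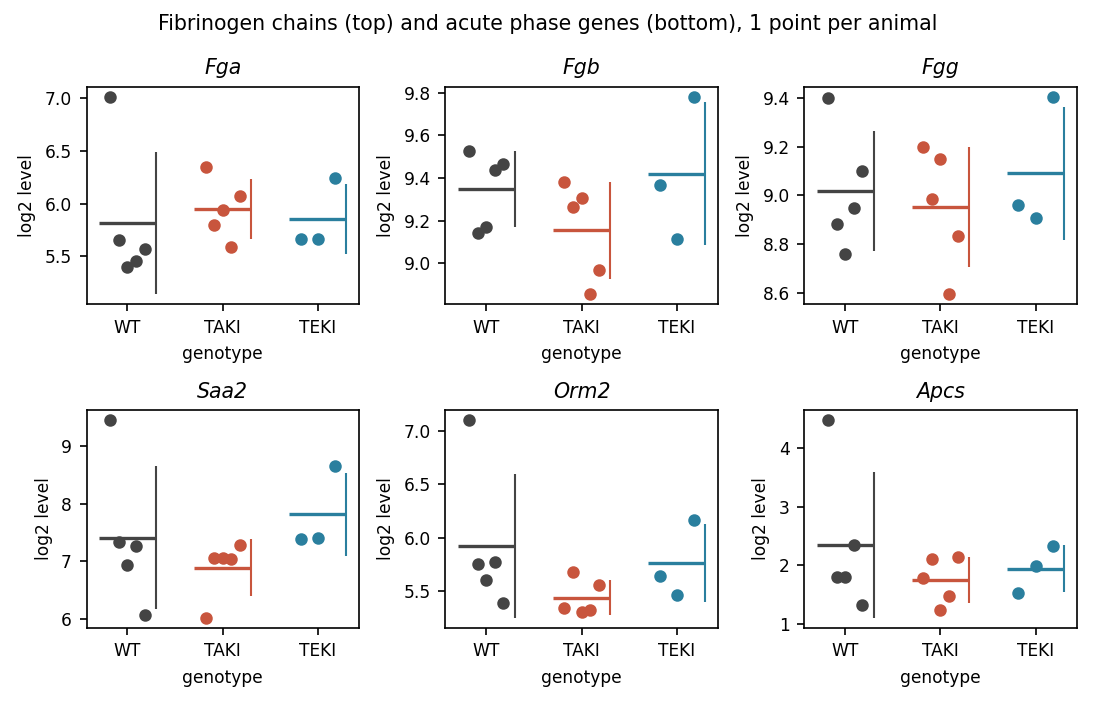
Log2 level of the fibrinogen chains Fga, Fgb and Fgg (top) and of the acute phase genes Saa2, Orm2 and Apcs (bottom), 1 point per animal, with the mean (horizontal line) and SD (vertical line) of each genotype; axes differ between panels and do not start at 0, and Fgb and Saa2 each have 1 saturated array. In Fga and in all 3 acute phase genes, 1 WT animal, replicate 1, lies above all others.

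Partner genes were compared across the 13 animals in 10 pairs. Of these, 6 passed at an adjusted permutation p under 0.05. Members in general correlated across animals, with r above 0.5 in 67.7% of all 595 pairs, so an r above 0.5 was common among members and not particular to partners. The highest r of all was 0.98, between Serpinc1 and Proc, and none of the 10 pairs was among the 15 highest. How many of the 595 would pass the same test was not computed. The pair of Fgb and Fgg reached r = 0.88 (rho = 0.86, adjusted p = 8e-04 and 0.0024), and Fga and Fgg r = 0.74 (rho = 0.66, adjusted p = 0.0086 and 0.040). Fga and Fgb, with r = 0.41 (rho = 0.29, adjusted p = 0.206 and 0.344), did not pass. The pair did with normexp correction (r = 0.64, adjusted p = 0.030) and with median scaling (r = 0.65, adjusted p = 0.032). Under median scaling, however, the median r over all 595 pairs was 0.81, with 92.9% above 0.5. The saturated spot of Fgb on 1 WT array may also affect its r. The C8 chains all passed: C8a and C8b with r = 0.87 (rho = 0.85, adjusted p = 8e-04 and 0.0024), C8b and C8g with r = 0.75 (rho = 0.71, adjusted p = 0.00865 and 0.0260), C8a and C8g with r = 0.71 (rho = 0.62, adjusted p = 0.0129 and 0.0432). The pair of C8a and C8g missed the threshold with normexp correction (r = 0.61, adjusted p = 0.0501) and without TEKI replicate 3 (r = 0.63, adjusted p = 0.056). Raw permutation p of r in the 6 passing pairs ran from 0.00012 to 0.0127. Without the 2 animals farthest from the median in each pair, r was 0.87 for C8a and C8b, 0.63 for C8b and C8g, 0.84 for C8a and C8g, 0.75 for Fgb and Fgg, and 0.60 for Fga and Fgg.

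Masp1 and Masp2 gave r = 0.67 (rho = 0.64, adjusted p = 0.021 and 0.040), but 0.45 without TAKI replicate 2 and TEKI replicate 3, and the pair missed the threshold without either of these animals. Mbl1 and Mbl2 (r = 0.45, rho = 0.44, adjusted p = 0.169 and 0.193) did not pass, nor did Klkb1 and Kng1 (r = 0.29, rho = 0.29, adjusted p = 0.370 and 0.344). Proc and Pros1 had r = -0.25 and rho = -0.35 (adjusted p = 0.416 and 0.300). Subtracting the genotype means left 6 pairs past the threshold, and quantile normalization left 5, without Masp1 and Masp2. C8a and C8b kept r = 0.84 after quantile normalization, Fga and Fgg 0.83.

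**Figure D5:**
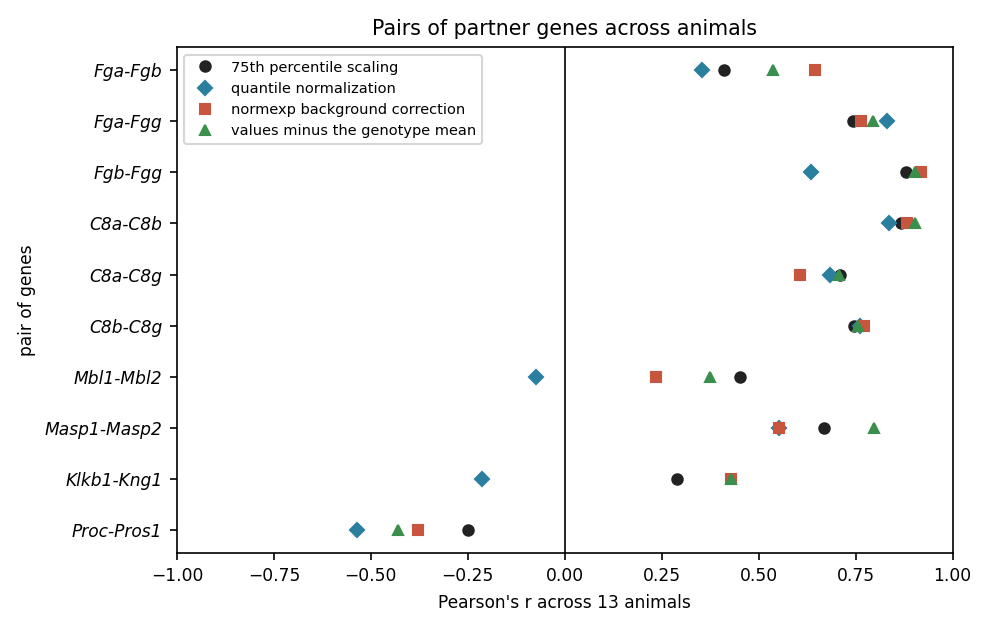
Pearson's r across 13 animals for 10 pairs of partner genes, with arrays scaled to their 75th percentile (circles), quantile normalized (diamonds), with normexp background correction (squares) and with the genotype mean subtracted (triangles). The 3 C8 pairs and the pairs of Fgg with Fga and Fgb stay above 0.6 in all 4, while Mbl1 with Mbl2 and Klkb1 with Kng1 lie near or below 0 after quantile normalization.

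Other genes of both systems, many of them made by endothelium, platelets or macrophages, were taken from a list of 30 for coagulation and 30 for complement. Of 30 coagulation genes tested, none passed in TAKI minus WT (3 at an unadjusted p under 0.05, by limma) or in TEKI minus WT (2 unadjusted), and 1 was higher in TEKI than in TAKI. That gene was F2rl3, a thrombin receptor, with a difference of 1.84 ± 0.44 (adjusted p = 0.041), but it was well above background on only 4 of 13 arrays. F2rl3 also had the smallest p of TAKI minus WT (-1.35 ± 0.38, adjusted p = 0.095). Lman1, which carries factors V and VIII out of the endoplasmic reticulum, had the next smallest p of TAKI minus WT (-0.36 ± 0.15, adjusted p = 0.27). A2m (1.13 ± 0.38) and F8 (0.39 ± 0.17) had the smallest p of TEKI minus WT, with adjusted p of 0.40 and 0.43.

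Of 28 complement genes tested (C7 and Cd46 were too dim), none passed in any comparison, with 2, 0 and 3 at an unadjusted p under 0.05. C3ar1, the receptor of C3a, differed by -0.47 ± 0.18 in TAKI (adjusted p = 0.23) and C4b by -0.36 ± 0.16 (adjusted p = 0.31). Cd59b, a guard against the membrane pore, had the smallest p of TEKI minus WT (0.34 ± 0.16, adjusted p = 0.45), and C4a the next (0.29 ± 0.18, adjusted p = 0.56).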

How the data were processed

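Liver RNA of 13 mice (5 WT, 5 TAKI, 3 TEKI) was hybridised to Agilent 1-colour arrays of 45018 spots. The deposited values are processed spot intensities on a linear scale, background-subtracted within the array by Agilent Feature Extraction 9.5, per the file headers and the submitters' processing notes. The value table deposited with the series has identical intensity values (largest absolute difference 0), so it is linear, uncentred and without a direction; its column medians were 73.0, 81.1, 54.1, 70.9 and 63.9 in WT, 77.2, 81.5, 80.2, 104 and 100.1 in TAKI, and 145, 74.1 and 61.0 in TEKI. Probe coordinates are mm7, per the file headers.

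Outlier spots were dropped, spots of a probe averaged as log2, and the array's 75th percentile subtracted. Per gene the brightest probe was tested if well above background on at least 3 arrays. Genes were fitted with limma 3.58.1 (R 4.3.3) in 1 model of 3 genotypes (10 residual degrees of freedom), with Benjamini-Hochberg adjustment over 20403 genes and a threshold of 0.05. The fit was tested on simulated data. Correlations used 100000 permutations, two-sided, adjusted within their family (Python 3.11.15, numpy 2.4.6, pandas 2.3.3; figures matplotlib 3.10.9). The number of arrays limits the precision.

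Members and lists were chosen with earlier results of these data known. Values on every array are given for members of the 3 smallest p per comparison, the fibrinogen chains and the members of largest and smallest SD within groups; rules for members past a threshold named none. Of each other list, genes past the threshold and the 2 of smallest p per comparison are named. Alternatives covered scaling, background, filter, probe choice, model, slide, position on the array, replicate number and leaving out each array. Slide as a fixed block was fitted only for TEKI minus WT. No protein table was used here. Some marker results are not reported here.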

Additional observations from a re-analysis of the deposited data

Results flagged for a closer look

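Within genotype groups of 5, 5 of 70 combinations of gene and group held an animal whose gap to its nearest neighbour was large against the range of the group; chance alone flags about 1 in 20 such groups. In WT replicate 1 these were Fga, at 7.01 against 5.65 for the next WT animal, Plg, at 7.14 against 6.76, and Hc, at 7.73 against 7.52. For Plg and Hc, TEKI replicate 3 was higher than this animal, at 7.16 and 7.99. In WT replicate 5 they were F13b, at 4.39 against 3.94, and Serpind1, at 7.13 against 6.67. The same WT replicate 1 held the highest acute phase values. WT replicate 5 shared its slide with the TEKI arrays and had the lowest 75th percentile of WT, 696; the part of either in these values was not tested.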

How the results depend on the processing

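The count of members past the threshold was 0 under every alternative run, in all 3 comparisons, with limma counts at an unadjusted p under 0.05 of at most 5 (array weights in TAKI minus WT, and 1 animal left out in TEKI minus TAKI). The members' median difference moved with median scaling, to -0.360 in TEKI minus WT and -0.135 in TEKI minus TAKI, where the median of all genes moved to -0.356 and -0.213. Correction for position on the array turned both signs too, to -0.131 and -0.027. Under both settings the array of TEKI replicate 1 moved most. Leaving out 1 array in turn gave -0.153 to -0.044 in TAKI minus WT, -0.079 to 0.173 in TEKI minus WT and -0.003 to 0.231 in TEKI minus TAKI; the lowest values of the last 2 were those without TEKI replicate 3, and the cause was not tested. The number of pairs passing ran from 4 (without TEKI replicate 3) to 9 (median scaling).

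Counts over all genes moved more: in TAKI minus WT 2252 passed with array weights, 1323 with only the groups compared, 1000 with median scaling and 238 with the strictest filter, against 565; in TEKI minus TAKI 4141 passed with normexp correction and 295 with the strictest filter, against 694; in TEKI minus WT 10 passed with slide as a fixed block and 100 at most with 1 array left out, against 1. Replicate numbers name different animals: same-numbered arrays correlated at -0.23 to 0.32, and with the replicate block 0 members and 340 genes passed in TAKI minus WT. Saturation on all 13 arrays limits C3, Hp and Alb, and saturation on some limits Ahsg, Saa1, Saa2 and Fgb; 3 TEKI animals limit every comparison with that genotype.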
